A study of Mus musculus with 3 samples.

Results

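The receptors described here are 8 G protein-coupled receptors or receptor-like proteins through which leukocytes sense metabolites, lipid mediators and chemoattractants: Hcar2, Gpr84, Gpr35, Fpr1, Fpr2, Ccrl2, Cmklr1 and Ptafr. They were selected on their differences between the 3 arrays, as a list of symbols drawn up with earlier results of these data known, and each was read from the probe set annotated to that symbol alone. Of the 8, 7 had such a probe set, 1 each, among the 22180 genes measured, and Fpr1 was not measured here. Because the same values guided the choice of genes, what follows is a description with no test.

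The study injected agents aimed at caveolin-1, which forms the coat of the small membrane pits called caveolae, into the vitreous of C57 mice and profiled the retina on whole-transcript microarrays, 1 array per group, each of 5 to 6 pooled retinae. The first array held retinae taken 2 days after Cav1-shRNA, a hairpin RNA that carries the name of the caveolin-1 gene. The second held retinae taken 2 hr after cavtratin, a cell-permeable peptide carrying the scaffolding domain of caveolin-1. The third held retinae taken 2 hr after AP, which the labels name as the control without spelling it out. The labels give no age, and every group, the control included, received an injection into the eye. The hairpin differs from AP control and from cavtratin in agent and in time at once. In both comparisons agent and time cannot be told apart. There were no replicates, so each difference compares 2 arrays and carries no error between pools. All values are deposited levels on a scale read as log2, or differences of such levels.

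Formyl peptide receptors recognise bacterial and mitochondrial peptides and steer neutrophils and monocytes toward them. Cmklr1 and Ccrl2 both bind chemerin, but Ccrl2 is an atypical receptor that presents the ligand rather than signalling through G proteins. Hcar2, Gpr84 and Gpr35 sense small metabolites, and several of the 8 genes are known to be induced by inflammatory stimuli in myeloid cells, of which microglia are the resident type in retina.

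The targeted gene was read first. Cav1, read from 1 probe set, was at 8.26 in all 3 arrays, so the array labelled Cav1-shRNA showed no lower level of it. Values were exactly equal in all 3 arrays for 50.1% of genes, so the tie does not show that Cav1 was unchanged, and every direction drawn from that array below carries that limit. Array medians over 41345 probe sets were 6.01 in Cav1-shRNA, 6.06 in cavtratin and 6.07 in AP control. Rod photoreceptor markers lay well up the scale, between 10.1 and 13.2 in every array for the 6 measured. As the floor for expression 6.50 was used, the median of the mean levels of all probe sets with 1 symbol. Genes count below as 2-fold apart or more where the difference was at least 1 in size and the higher of the 2 arrays reached the floor. Over 280 genes with more than 1 probe set at the floor, the differences given by 2 probe sets of one gene lay within 0.303 of each other for Cav1-shRNA against AP control in 95% of genes, within 0.345 for cavtratin against AP control and within 0.317 for Cav1-shRNA against cavtratin. These gaps hold no spread between animals or pools.

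Hcar2, Fpr2, Ccrl2 and Ptafr stood highest in the cavtratin array, intermediate in Cav1-shRNA and lowest in AP control, whereas Gpr84, Gpr35 and Cmklr1 were less than 2-fold apart in every comparison. That order is usual for genes high in cavtratin: 144 of the 156 genes at least 2-fold higher in cavtratin than in AP control, or 92.3%, had it, and 3.75% of all genes did. Against AP control, 3 of the 7 measured receptors were at least 2-fold higher in Cav1-shRNA, where 0.176% of all 22180 genes were, and 4 of 7 were at least 2-fold higher in cavtratin, where 0.703% of all genes were. None was at least 2-fold lower in either, against 0.0631% and 0.0496% of all genes. In the comparison without AP control, 4 of 7 were at least 2-fold lower in Cav1-shRNA than in cavtratin, where 0.406% of all genes were, and none was higher, against 0.018%. The median difference of the 7 was 0.99 for Cav1-shRNA against AP control, 2.21 for cavtratin against AP control and −1.22 for Cav1-shRNA against cavtratin, while the median over all genes was 0 in each. These counts are read as a description, since the receptors were listed with such differences in view. The first 2 comparisons share the AP control array, so they are not independent of each other. The third is the first minus the second, so it is not separate evidence either. At least 1 of the 2 arrays reached the floor for 5 of the 7 receptors, the exceptions in each comparison being Gpr35 and Cmklr1.

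**Figure D1:**
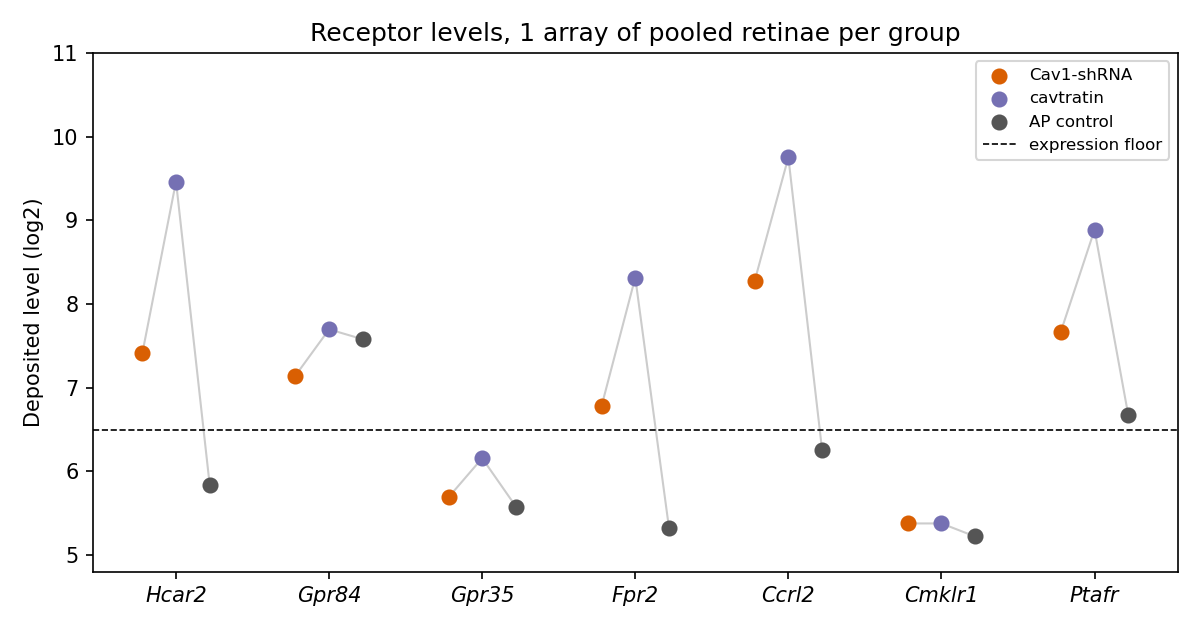
Deposited log2 level (vertical axis) of the 7 measured receptors (horizontal axis), with 1 point per array of 5 to 6 pooled retinae for Cav1-shRNA, cavtratin and AP control and a dashed line at the expression floor of 6.50. Hcar2, Fpr2, Ccrl2 and Ptafr peak in cavtratin, at 9.46, 8.32, 9.75 and 8.89, while Gpr35 and Cmklr1 stay below the floor in all 3 arrays.

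Among the metabolite receptors, Hcar2 had the largest difference of the 7 between Cav1-shRNA and cavtratin, both above the floor. Hcar2 encodes the Gi-coupled receptor for nicotinic acid and the ketone body beta-hydroxybutyrate, found on neutrophils, macrophages and microglia. Its level was 7.41 in Cav1-shRNA, 9.46 in cavtratin and 5.84 in AP control, so AP control alone lay below the floor. That placed Cav1-shRNA 1.57 above AP control, or 2.98-fold, and cavtratin 3.62 above it, or 12.3-fold. The difference of Cav1-shRNA from cavtratin was −2.05, a 4.14-fold lower level, and 13 of 22180 genes had a more negative one. Hcar1, the lactate receptor gene next to Hcar2 on chromosome 5, was at 5.38 in all 3 arrays, below the floor.

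Gpr84 encodes a receptor for medium-chain fatty acids and is known for its induction in activated microglia and macrophages. Its level was 7.15 in Cav1-shRNA, 7.70 in cavtratin and 7.58 in AP control, above the floor in each. The cavtratin and AP control arrays differed by 0.12, within the gap usual between probe sets of one gene. Cav1-shRNA was the low array, at −0.43 from AP control and −0.55 from cavtratin, and Gpr84 was the 1 receptor of the 7 that lay below AP control there. Of all genes, 141 had a more negative difference between Cav1-shRNA and AP control. Gpr35, a receptor activated by kynurenic acid, was at 5.69 in Cav1-shRNA, 6.16 in cavtratin and 5.58 in AP control. All 3 values were below the floor, and the difference of 0.58 between cavtratin and AP control was not read as an order.

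Of Fpr1 and Fpr2, the formyl peptide receptors listed here, Fpr2 alone was measured. Fpr2, which binds formyl peptides, serum amyloid A and annexin A1, was at 6.78 in Cav1-shRNA, 8.32 in cavtratin and 5.33 in AP control. Cavtratin exceeded AP control by 2.99, or 7.93-fold. Cav1-shRNA exceeded AP control by 1.45, or 2.74-fold, with a level only 0.28 above the floor. Its difference from cavtratin was −1.53, a 2.90-fold lower level, and 30 genes had a more negative one. Fpr2 sits between Fpr1 and Fpr3 in a cluster on chromosome 17, and of the other cluster members 3 were measured, Fpr-rs3, Fpr-rs4 and Fpr-rs6. None of the 3 reached the floor in any array, the highest being Fpr-rs3 at 5.48 in Cav1-shRNA, 5.20 in cavtratin and 5.18 in AP control. Genes of one cluster can share sequence, and how the probe set of Fpr2 separates them was not tested.

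The chemerin receptors differed from each other. Ccrl2 was at 8.28 in Cav1-shRNA, 9.75 in cavtratin and 6.26 in AP control, with AP control just under the floor. It was 2.02 higher in Cav1-shRNA than in AP control, or 4.04-fold. It was 3.49 higher in cavtratin than in AP control, or 11.2-fold. Between Cav1-shRNA and cavtratin the difference was −1.48, a 2.78-fold lower level in Cav1-shRNA, with 33 genes more negative. Cmklr1, the signalling chemerin receptor of macrophages and dendritic cells, was at 5.38 in both Cav1-shRNA and cavtratin and at 5.22 in AP control. Those first 2 values were identical to within 1e-09, a common feature of this table, in which 60.8% of genes had exactly equal values in these 2 arrays. All 3 Cmklr1 values were below the floor.

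Ptafr encodes the receptor for platelet-activating factor, a phospholipid that activates neutrophils, platelets and endothelium. It was the 1 receptor of the 4 with high cavtratin values that also reached the floor in every array, at 7.67 in Cav1-shRNA, 8.89 in cavtratin and 6.68 in AP control. Cavtratin was 2.21 above AP control, or 4.63-fold, and 36 genes had a larger difference. Cav1-shRNA was 0.99 above AP control, or 1.99-fold, just short of the threshold, and counted as 2-fold apart once each array was centred on its median, at 1.05, or quantile normalized, at 1.03. The difference of Cav1-shRNA from cavtratin was −1.22, a 2.32-fold lower level, with 66 genes more negative.

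For the 3 receptors with an AP control level below the floor, the fold rests on a value below it, and no background or detection value was used here. With every value below 6.50 raised to it, an alternative added after the data were seen, Ccrl2 was 1.78 higher in Cav1-shRNA than in AP control, Hcar2 0.91 and Fpr2 0.28, which left 1 receptor at least 2-fold higher. For cavtratin against AP control the same step gave 3.25 for Ccrl2, 2.97 for Hcar2 and 1.82 for Fpr2, and all 4 receptors stayed at least 2-fold higher.

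**Figure D2:**
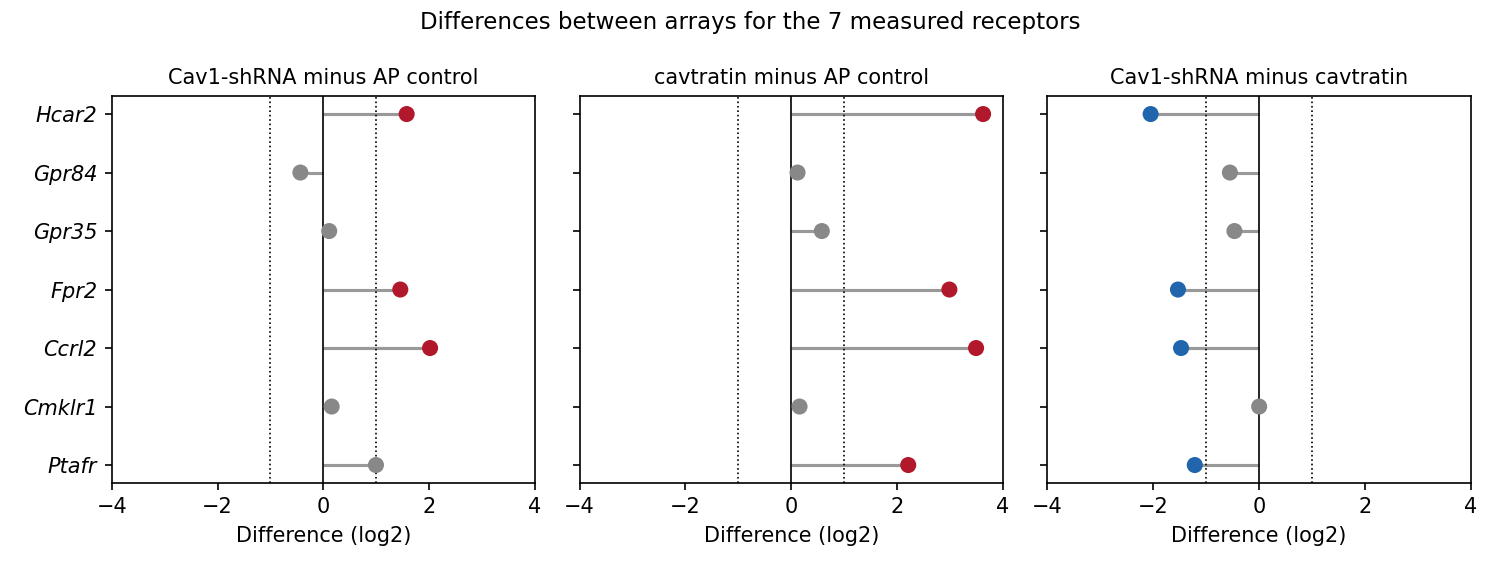
Difference in log2 level (horizontal axis) of each measured receptor (vertical axis) for Cav1-shRNA minus AP control, cavtratin minus AP control and Cav1-shRNA minus cavtratin, with dotted lines at a difference of 1 in size, red points for at least 2-fold higher, blue for at least 2-fold lower and grey for neither. Ptafr lies at 0.99 in the left panel, just inside the line, and 4 receptors are blue in the right panel.

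Promoter windows of 300 bases, 250 before to 50 after the start, were available from RefSeq on GRCm38.p6 for 7 of the 8 genes, and Hcar2 had no entry. Those of Ccrl2, Fpr2 and Ptafr are shown because these receptors were at least 2-fold higher in cavtratin than in AP control, and that of Cmklr1 because it is the other chemerin receptor and was not. Ccrl2 had several listed starts, and the first window in the table is shown, chr9:111057469-111057768 on the minus strand. Fpr2 lies at chr17:17887574-17887873 on the plus strand, Ptafr at chr4:132563817-132564116 on the plus strand and Cmklr1 at chr5:113643554-113643853 on the minus strand. Capitals mark matches to any of 6 motifs, searched on both strands with overlaps counted, and lower case is the rest.
Ccrl2: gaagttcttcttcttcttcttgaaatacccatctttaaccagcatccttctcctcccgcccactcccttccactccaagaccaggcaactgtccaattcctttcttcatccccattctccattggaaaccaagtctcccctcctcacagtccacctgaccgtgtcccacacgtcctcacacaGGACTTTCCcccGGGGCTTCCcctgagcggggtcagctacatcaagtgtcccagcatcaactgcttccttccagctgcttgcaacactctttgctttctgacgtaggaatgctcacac
Fpr2: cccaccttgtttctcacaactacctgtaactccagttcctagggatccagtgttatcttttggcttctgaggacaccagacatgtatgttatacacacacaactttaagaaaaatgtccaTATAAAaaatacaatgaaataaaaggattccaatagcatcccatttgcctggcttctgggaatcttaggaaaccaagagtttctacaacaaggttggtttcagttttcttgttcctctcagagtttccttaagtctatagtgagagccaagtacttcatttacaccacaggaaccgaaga
Ptafr: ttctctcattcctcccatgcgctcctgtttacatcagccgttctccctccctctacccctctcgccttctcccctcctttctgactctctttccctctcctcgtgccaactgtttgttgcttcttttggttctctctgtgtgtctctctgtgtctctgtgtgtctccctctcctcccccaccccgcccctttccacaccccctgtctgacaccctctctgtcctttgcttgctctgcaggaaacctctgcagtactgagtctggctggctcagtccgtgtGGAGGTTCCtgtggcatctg
Cmklr1: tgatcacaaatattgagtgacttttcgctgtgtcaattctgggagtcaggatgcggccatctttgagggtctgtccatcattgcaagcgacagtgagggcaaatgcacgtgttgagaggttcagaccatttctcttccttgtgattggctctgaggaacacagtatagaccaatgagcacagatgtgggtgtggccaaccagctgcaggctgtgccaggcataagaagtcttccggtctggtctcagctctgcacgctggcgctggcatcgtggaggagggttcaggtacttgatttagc

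The motifs were GGNNNTTCC for NF-kB, TGANTCA for AP-1, TTGCNNAA for C/EBP, GAGGAAG for PU.1, GAAANNGAA for interferon-response elements and TATAAA for the TATA box, and the start itself is position 0. The Ccrl2 window held 2 NF-kB matches that do not overlap, GGACTTTCC from position −68 to −60 and GGGGCTTCC from −56 to −48, and its other listed windows held none of the 6 motifs. The Ptafr window held 1, GGAGGTTCC, after the start at positions 30 to 38. These letters were in 18.5% of all 32851 promoter windows. The spellings for NF-kB and interferon-response elements were settled after the windows were seen. A looser form for NF-kB, with 3 G and 2 C around any 5 bases, matched the windows of Ccrl2 and Cmklr1 but not that of Ptafr, and was in 50.8% of all windows. Which windows match therefore depends on the spelling. The Fpr2 window held 1 TATAAA that begins at position −130, a motif in 13.6% of all windows, and no NF-kB match. The Cmklr1 window held none of the 6. AP-1 letters were in 7.81% of all windows, C/EBP letters in 10.8%, PU.1 letters in 13.6% and interferon-response letters in 8.56%. No motif was shared by the windows of Ccrl2, Fpr2 and Ptafr, and a match here is a description of letters and not of binding.

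Genes of the closest pattern were sought for the 4 receptors that were at least 2-fold apart, among 10723 other genes at the floor, by the Euclidean distance between the 3 array values after each gene's mean was subtracted. With only 3 arrays, closeness describes these arrays alone. Hcar2 lay nearest S100a8, a neutrophil calcium-binding protein, at a distance of 0.162, then Clec4e, a myeloid C-type lectin receptor, and Il1f9, an interleukin-1 family cytokine. S100a8 was at 7.44 in Cav1-shRNA, 9.72 in cavtratin and 5.98 in AP control. Fpr2 lay nearest Tnfrsf1b, a tumor necrosis factor receptor, at 0.126, then Stfa2l1 and Wfdc17. Ccrl2 lay nearest Il1f9 at 0.127, then Saa3, an acute-phase serum amyloid, and Slpi, an inhibitor of leukocyte proteases. Ptafr had the closest neighbours, Slfn2, a schlafen family gene of leukocytes, at 0.0479, Mrgpra2a at 0.0674 and Lilrb4a, an inhibitory myeloid receptor, at 0.0790. Slfn2 was at 7.46 in Cav1-shRNA, 8.67 in cavtratin and 6.40 in AP control.

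**Figure D3:**
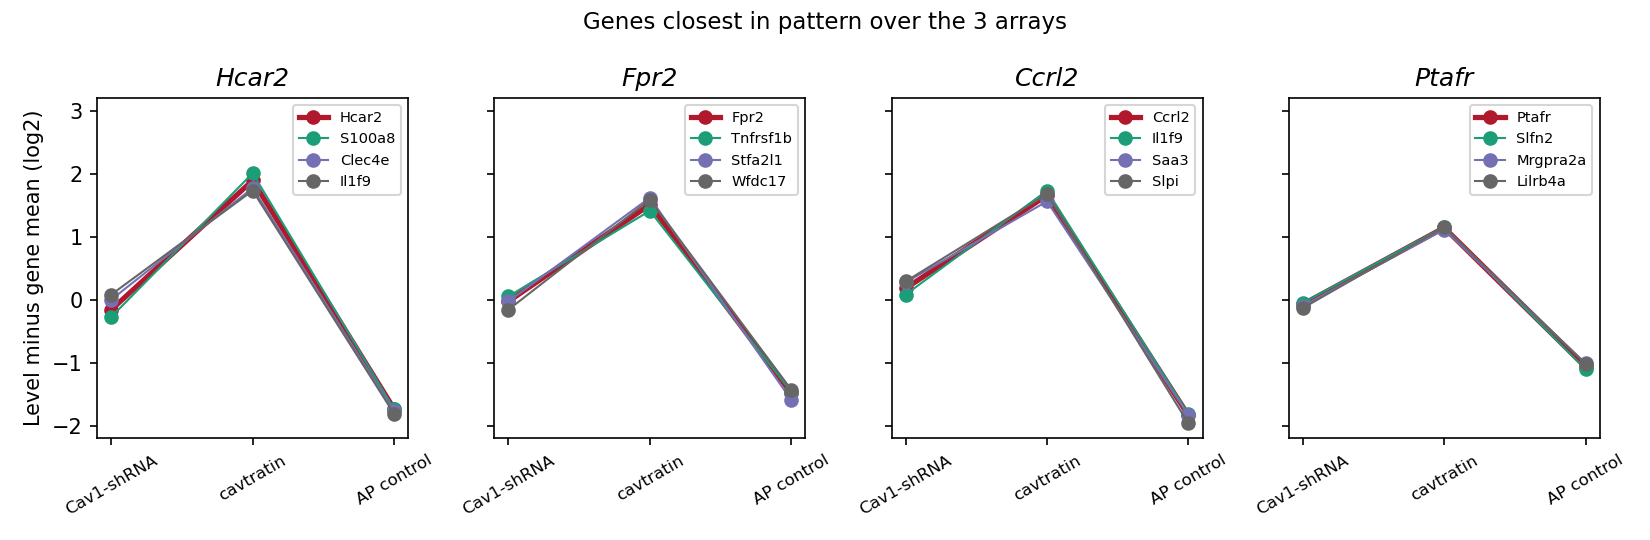
Level minus the gene's mean over the arrays (vertical axis, log2) in Cav1-shRNA, cavtratin and AP control (horizontal axis) for Hcar2, Fpr2, Ccrl2 and Ptafr in red, each with its 3 nearest genes by distance, 1 point per array. All lines peak in cavtratin, and the Ptafr neighbours lie within a distance of 0.0790.

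Other receptors of leukocytes were mostly level or low. Of 35 further metabolite, purine, lipid and complement receptors measured, 8 reached the floor in either comparison with AP control. None of the 35 was at least 2-fold apart for Cav1-shRNA against AP control, where 0.176% of all genes were higher and 0.0631% lower. P2ry2, a receptor for extracellular ATP and UTP, was at least 2-fold higher in cavtratin, at 6.82 in Cav1-shRNA, 7.39 in cavtratin and 6.30 in AP control. Its fold rests on an AP control value below the floor. C3ar1, the receptor for complement C3a, was higher by 0.73 in Cav1-shRNA and by 0.54 in cavtratin than in AP control. The list median was 0 in every comparison, as over all genes. Over the 8 members at the floor alone it was 0.20 for Cav1-shRNA and 0.23 for cavtratin against AP control. Of these 8, P2ry2 and Gpr31b were below the floor in AP control. Of 21 chemokine receptors, none was at least 2-fold apart for Cav1-shRNA against AP control and 2 were at least 2-fold higher in cavtratin. These were Ccr1, at 5.89 in Cav1-shRNA, 7.45 in cavtratin and 5.22 in AP control, and Cxcr2, the neutrophil receptor for CXC chemokines, at 6.81 in Cav1-shRNA, 8.08 in cavtratin and 6.58 in AP control. Both were also at least 2-fold lower in Cav1-shRNA than in cavtratin, and Ccr1 reached the floor in cavtratin alone.

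On the ligand side, Saa3 was the 1 gene at least 2-fold apart among 7 measured genes for formyl peptide receptor ligands and related proteins, at 10.2 in Cav1-shRNA, 11.5 in cavtratin and 8.14 in AP control. Saa3 encodes a serum amyloid A protein, a family with members that activate Fpr2. Rarres2, the gene of chemerin, was not measured here. Anxa1, which encodes the Fpr2 ligand annexin A1, was at 8.33 in Cav1-shRNA, 8.42 in cavtratin and 8.14 in AP control, a range smaller than 0.345. The 7 enzymes of platelet-activating factor synthesis and breakdown held none at least 2-fold apart. Pla2g4a, the cytosolic phospholipase that releases its precursor, was 0.15 higher in Cav1-shRNA and 0.43 higher in cavtratin than in AP control. Lpcat2, the enzyme that makes it in activated macrophages, was 0.10 and 0.23 higher in the same comparisons. None of the 10 kynurenine pathway genes or of the 6 ketone body and fatty acid genes was at least 2-fold apart. With 0.176% of all genes at least 2-fold higher in Cav1-shRNA and 0.703% in cavtratin, empty counts in lists this short say little. Of the 10 kynurenine genes, 3 reached the floor, and 9 were exactly equal in cavtratin and AP control. Of all genes, 61.6% were exactly equal in these arrays.

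Downstream, none of 29 genes of Gi signalling and receptor desensitisation was at least 2-fold apart in any comparison. Over all genes, 0.176% were at least 2-fold higher in Cav1-shRNA and 0.703% in cavtratin than in AP control, so that empty count says little. The list median was 0.060 for Cav1-shRNA and 0.057 for cavtratin against AP control. Gnai2, the main Gi subunit of leukocytes, was 0.27 higher in Cav1-shRNA and 0.15 higher in cavtratin. Pik3cg, the kinase activated by G protein beta-gamma subunits in leukocytes, was 0.51 and 0.55 higher. The phagocyte NADPH oxidase, an effector of formyl peptide receptors, had a median of 0.67 over 5 measured genes for Cav1-shRNA against AP control and of 0.69 for cavtratin against AP control. Of these, 1 was at least 2-fold higher in Cav1-shRNA and 2 in cavtratin. Rac2, the haematopoietic Rac GTPase, was at 8.67 in Cav1-shRNA, 9.62 in cavtratin and 7.66 in AP control. Ncf4 was at 6.07 in Cav1-shRNA, 6.69 in cavtratin and 5.32 in AP control, so it reached the floor in cavtratin alone. Cybb, the catalytic subunit, was 0.61 higher in Cav1-shRNA and 0.63 higher in cavtratin.

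Among myeloid marker lists, the neutrophil and the microglia and macrophage lists had their highest summed level in cavtratin and lowest in AP control. The 4 receptors with high cavtratin values had the same order, as did 92.3% of genes at least 2-fold higher in cavtratin than in AP control. The platelet markers, all below the floor, had it in their sums too. For microglia and macrophage markers the Cav1-shRNA and cavtratin sums lay close, at 119.8 and 120.3. Singly, 8 of these 16 markers were higher in Cav1-shRNA than in cavtratin and 5 were lower. The monocyte list had its highest sum in Cav1-shRNA, where Ly6c2 was high. Yet 5 of its 8 markers were lower in Cav1-shRNA than in cavtratin and 2 higher, with a median difference of −0.067. Single markers of the monocyte and microglia lists were thus mixed. In bulk retina a larger number of such cells and more RNA per cell cannot be told apart. Of 14 neutrophil markers, 5 reached the floor in Cav1-shRNA, 8 in cavtratin and 4 in AP control, and their summed log2 level was 86.5 in Cav1-shRNA, 96.9 in cavtratin and 82.0 in AP control. Of the 14, 1 was at least 2-fold higher in Cav1-shRNA and 6 in cavtratin than in AP control. The list median was 0.23 for Cav1-shRNA and 0.67 for cavtratin against AP control. Over members at the floor in the higher of the 2 arrays it was 0.24 over 5 and 1.78 over 8. These sets differ: S100a9, Retnlg and Mmp8 passed through the cavtratin array alone, so the 1.78 rests in part on that filter. The 6 markers at least 2-fold higher in cavtratin were S100a8, S100a9, Cxcr2, Csf3r, Retnlg and Mmp8. The granule genes Elane, Mpo and Ngp and the surface marker Ly6g were below the floor in all 3 arrays. Of 16 microglia and macrophage markers, 3 were at least 2-fold higher in Cav1-shRNA and 4 in cavtratin than in AP control, with Mpeg1, Fcer1g and Cd68 in both and Itgam in cavtratin. Mpeg1, a pore-forming protein of macrophages, was at 8.12 in Cav1-shRNA, 8.54 in cavtratin and 6.90 in AP control, and Fcer1g, the Fc receptor gamma chain, at 9.90 in Cav1-shRNA, 10.7 in cavtratin and 8.81 in AP control. Their summed log2 level was 119.8 in Cav1-shRNA, 120.3 in cavtratin and 112.1 in AP control, while P2ry12, which marks resident microglia, was at 6.87 in all 3 arrays. The median difference of the 16 was 0.36 for Cav1-shRNA and 0.028 for cavtratin against AP control. Over the 12 members at the floor in the higher of the 2 arrays it was 0.64 and 0.32. Of these, Itgam and Adgre1 were below the floor in AP control. Ctss, C1qa and C1qb were higher in Cav1-shRNA than in cavtratin, by 0.53, 0.41 and 0.51. Of 8 monocyte markers, 2 were at least 2-fold higher in Cav1-shRNA and 1 in cavtratin than in AP control, with F10, coagulation factor X, in both. Ly6c2 was high in Cav1-shRNA alone, at 8.08, with 6.16 in cavtratin and 6.59 in AP control. The summed log2 level of the 8 was 50.4 in Cav1-shRNA, 49.6 in cavtratin and 47.7 in AP control. Their list median was 0.035 for Cav1-shRNA and 0.11 for cavtratin against AP control. Over members at the floor in the higher of the 2 arrays it was 1.04 over 3 and 0.18 over 4. The 1.04 is the value of F10, and the sets differ by Plac8, which passed through the cavtratin array alone. No marker of T and NK cells, B cells or mast cells reached the floor in any array, among 9, 5 and 5 measured, nor did the 4 platelet markers measured of 10 listed for red blood cells and platelets. Of the 4, Ppbp was 0.70 higher in Cav1-shRNA and 1.11 higher in cavtratin than in AP control, at 6.46 in cavtratin, just under the floor. Pf4 was 0.75 higher in both, and Gp9 and Itga2b were equal in all 3 arrays. Red blood cell markers were not measured here.

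Markers of other eye tissue were read beside them. Of 13 lens markers, 5 were at least 2-fold higher in cavtratin than in AP control and none in Cav1-shRNA. These were Cryaa, Cryba1, Cryba2, Cryba4 and Crygs, all crystallins, and together with Crygc they were also at least 2-fold lower in Cav1-shRNA than in cavtratin. The list had a summed log2 level of 87.2 in Cav1-shRNA, 102.9 in cavtratin and 88.4 in AP control. The 8 endothelial, 8 Muller glia, 6 rod and 8 retinal pigment epithelium markers held none at least 2-fold apart in any comparison. Few of all genes were, so empty counts in lists this short say little. The part of these cell types in the receptor differences was not tested.

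**Figure D4:**
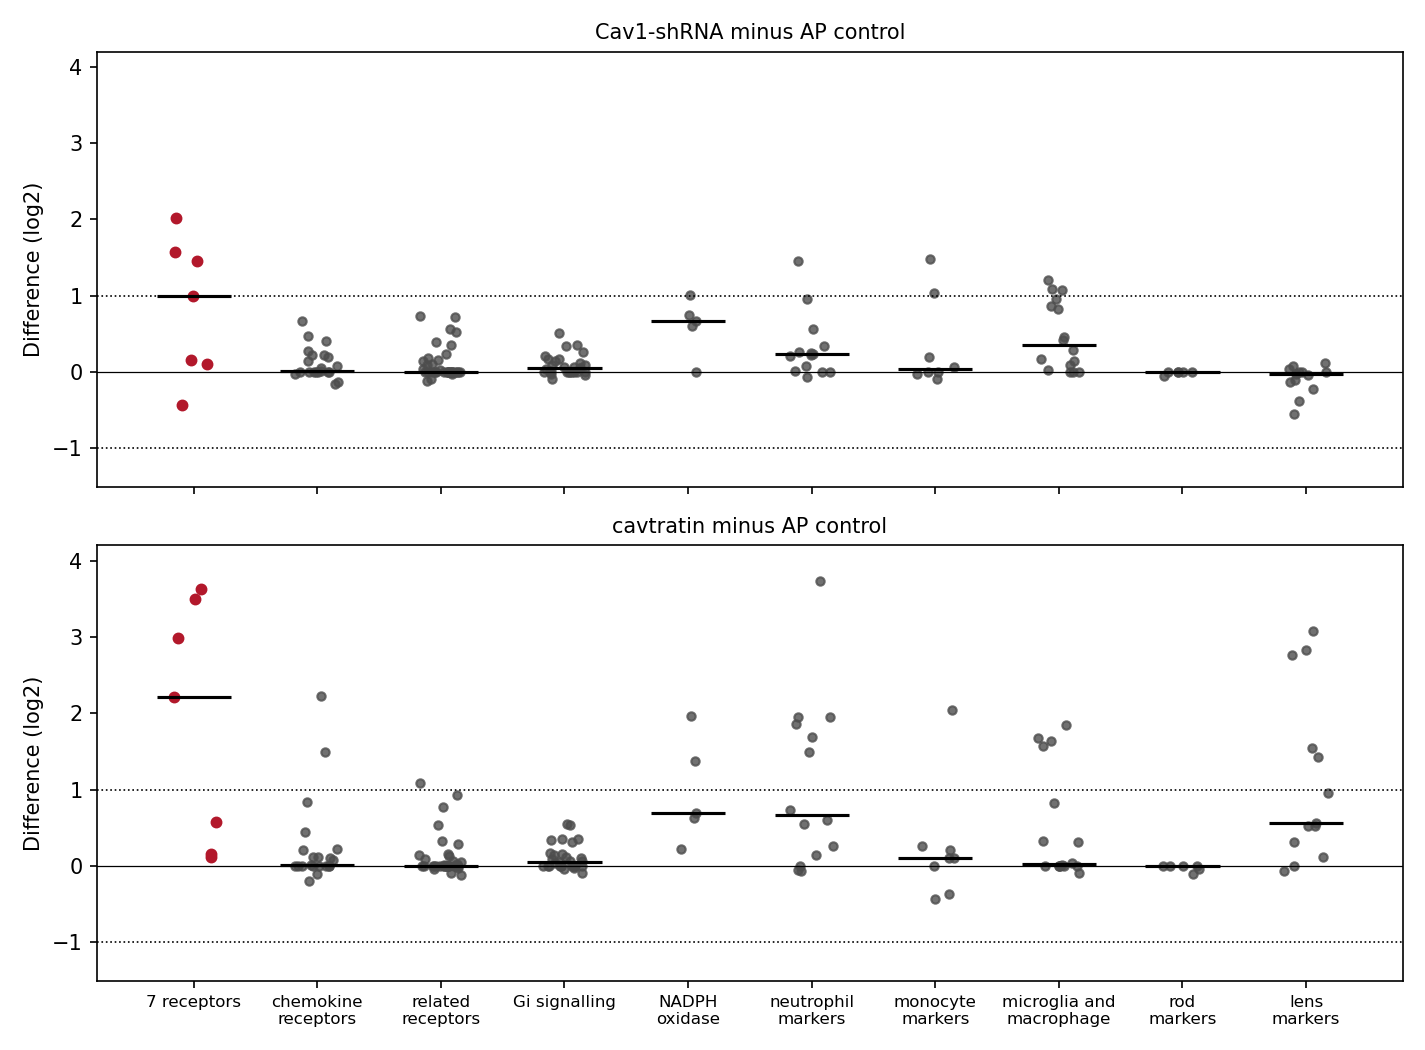
Difference in log2 level (vertical axis) for Cav1-shRNA minus AP control (top) and cavtratin minus AP control (bottom), with 1 point per gene for the 7 receptors in red and for other gene lists in grey, black bars at list medians and dotted lines at a difference of 1 in size. The receptor medians are 0.99 and 2.21, and the rod marker medians are 0 and −0.0012.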

How the data were processed

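The deposited table held 1 column per array in log2 units, as read from the range of the values; for the authors' summarisation, normalization and build nothing is given in the sources used here. The 3 sorted columns differed by at most 0.209. Of 41345 probe sets, 23521 had 1 symbol in the platform annotation, 1814 had several and 16010 had none or were unlisted, and only the first kind was named. Of these, 23328 matched RefSeq genes by Entrez identifier. The probe set with the highest mean stood for a gene, which gave 22180 genes. Many values were exactly equal between arrays, in all 3 for 50.1% of genes.

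Differences of deposited log2 values were computed in Python 3.11.15 with pandas 2.3.3, with no test, since each group had 1 array, a number that limits the precision. The counting was tested on simulated data. The receptors and the 9 pathway and 12 cell type lists were chosen with earlier results of these data known. Named were all receptors, every list member at least 2-fold apart or otherwise up to 4 with the largest differences, and the 3 genes nearest in pattern to each receptor that was 2-fold apart. List genes named beyond that rule, for their role or for staying level, were chosen after their values were seen. Alternatives were centring, quantile normalization, a loess trend with span 0.3, the mean of probe sets, floors at the 25th and 75th percentiles, thresholds of 1.5-fold and 3-fold, list means, and list members at the floor. A list member counted as at the floor where the higher of the 2 arrays compared reached it. Raising values to the floor was added later.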

Additional observations from a re-analysis of the deposited data

How the results depend on the processing

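No paired analysis was possible because each group had 1 array. Under centring, quantile normalization and loess, no receptor difference changed sign, and scaling moved them by at most 0.058. Little change was possible by construction. Centring adds a constant to all genes of a comparison. With most genes exactly equal between arrays, the loess trend was nearly flat. Each measured receptor had 1 probe set, so the mean of probe sets could not change its values. The counts of receptors at least 2-fold apart stayed within 1.5 times of those reported, except as follows. For Cav1-shRNA against AP control, 3 became 1 with the floor at the 75th percentile, with a threshold of 3-fold, and with values raised to the floor. For Cav1-shRNA against cavtratin, 4 became 1 with a threshold of 3-fold. Over the pathway lists, 6 genes were at least 2-fold apart in some comparison, and this became 2 with the floor at the 75th percentile, 11 at 1.5-fold, 3 at 3-fold and 3 with values raised to the floor. Of 426 list medians or means under the alternatives, 33 moved by more than a spread of 0.089 to 0.139, depending on the comparison. That spread was the SD of the gaps between paired probe sets, divided by the square root of 2. The larger floors and thresholds admit fewer genes by construction. Signal over background limits Hcar2, Fpr2 and Ccrl2, with AP control below the floor, and Gpr35 and Cmklr1, below it in every array.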
